A study of Mus musculus with 96 samples.

Results

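The fatty acid desaturases and elongases were described here as 9 genes of 25095 gene symbols in the tables: the desaturases Scd1, Scd2, Fads1 and Fads2 and the elongases Elovl1, Elovl2, Elovl3, Elovl5 and Elovl6. They were chosen by symbol, and each was read from its transcript with the highest mean. All 9 were present in each of the 4 tables and passed the filter on low values, which asked for more than 5 RPKTM in at least 3 libraries. RPKTM is the deposited unit, an RPKM (reads per kilobase of transcript and per fixed number of reads) scaled up 10-fold and quantile normalized.

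Desaturases and elongases remodel the fatty acids that a cell makes or takes up. Scd1 and Scd2 encode stearoyl-CoA desaturases, which put a double bond into saturated acyl-CoAs and so make oleate and palmitoleate. Fads1 and Fads2 encode the delta-5 and delta-6 desaturases of polyunsaturated fatty acid synthesis, and the Elovl genes encode the enzymes that run the first, rate-limiting condensation of microsomal chain elongation. Elovl6 extends palmitate, Elovl5 and Elovl2 extend polyunsaturated chains, and Elovl1 and Elovl3 extend saturated and monounsaturated chains to very long ones. In the liver several of these genes are known targets of the SREBP transcription factors, which need the escort protein SCAP to be activated, and Elovl3 is known for a strong daily rhythm.

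REV-ERBα and REV-ERBβ are repressors of the molecular clock. The question of the study was how hepatocytes that lack both act on other liver cells in a fatty liver, and whether SREBP signalling takes part. All mice were male C57BL/6J and had 4 weeks of a diet rich in fat and sucrose. Control mice were Rev-erbα fl/fl Rev-erbβ fl/fl and received AAV-TBG-GFP at 8 weeks of age. For RevDKO the same floxed mice received AAV-TBG-CRE, and RevScapTKO mice carried Scap fl/fl in addition and received the same Cre virus. TBG is a hepatocyte promoter, so the deletions were directed to hepatocytes only, also in the mice that gave the macrophage libraries. ScapKO denotes loss of Scap alone in hepatocytes. The 4 genotypes, 2 isolated cell types (hepatocytes and liver macrophages) and 4 zeitgeber times (ZT4, ZT10, ZT16 and ZT22, with lights on at ZT0 and off at ZT12) gave 32 groups of 3 biological replicates, 96 libraries in all. Control, RevDKO and RevScapTKO share 1 table of 36 libraries for each cell type, and ScapKO has a table of 12 for each, normalized apart, so ScapKO has no control group in its own table.

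Quantile normalization gave every library of a table the same set of values, so the depth is unknown and a level is relative to the other transcripts of its table. The labels were checked on the targeted genes of the hepatocyte libraries. Nr1d1, which encodes REV-ERBα, was 138 ± 108 RPKTM in the libraries labelled RevDKO and 90.7 ± 119 RPKTM in Control (SD, n = 12 each), and its difference of mean level over the 4 times went against the label (log2 difference 1.55, SE 0.25, adjusted p = 8.87e-05). The deleted exons are not given in the sources used here, and the values cover whole transcripts, so Nr1d1 does not check the deletion by itself. The other differences were also above 0. In RevScapTKO minus Control the log2 difference was 1.79 for Nr1d1 (adjusted p = 2.13e-06) and 0.95 for Nr1d2, which encodes REV-ERBβ (adjusted p = 0.000318), and in RevDKO minus Control Nr1d2 had 0.62 (adjusted p = 0.0626). Every direction given below for libraries labelled RevDKO or RevScapTKO rests, as to the REV-ERBs, on those labels. Scap was 209 ± 63.5 RPKTM in the libraries labelled RevScapTKO, below 495 ± 73.1 in Control and 536 ± 109 in RevDKO, and its 12 RevScapTKO libraries (82.8 to 299) lay below all the others. For ScapKO 1 hepatocyte library (ZT22 replicate 2) and 2 macrophage libraries (ZT4 replicate 2 and ZT22 replicate 2) stood apart, and the ScapKO results that rest on them are given with and without them.

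In mm9, 5 of the 9 genes lie on chromosome 19. Scd1 (19:44468940-44482199, minus strand) and Scd2 (19:44368166-44381352, plus strand) are neighbours 87.6 kb apart, and Fads2 (19:10137255-10175993, minus strand) lies 81.4 kb from Fads1 (19:10257378-10271362, plus strand). Elovl3 is at 19:46206389-46210184 on the plus strand and overlaps Pitx3 of the opposite strand by 9 bases. Elovl6 is at 3:129235304-129341411 and Elovl5 at 9:77765172-77832326, both on the plus strand. Elovl2 is at 13:41277751-41315531 on the minus strand, and Elovl1 at 4:118100698-118105557 on the plus strand, where it overlaps Cdc20 of the opposite strand by 52 bases. That Elovl1 transcript was read for Control, RevDKO and RevScapTKO hepatocytes, and one with a later start (4:118102306-118105557) for all other libraries, so Elovl1 levels of these hepatocytes and of the other libraries come from different transcripts. Elovl6 overlaps Gm35986 of the opposite strand by 3 bases, and the microRNA genes Mir5114 and Mir6993 overlap Scd2 and Fads1 on the same strand by 61 and 65 bases. Whether counting used the strand is not given in the sources used here, so reads in these overlaps cannot be assigned to 1 gene.

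Promoters were read for Fads2, Elovl1, Elovl2, Elovl5 and Elovl6 from RefSeq (build GRCm38.p6, not the mm9 of the tables). Those of Elovl5, Elovl6 and Fads2 are printed because these genes fell with Scap, as the 250 bases before the annotated start, 5′ to 3′ on the gene's strand. Capitals mark the letters found, on either strand, of a search for TCACNCCAC (a published form of the sterol regulatory element), CCAAT (the NF-Y box, which accompanies such elements), CACGTG (the E-box) and AGGTCA (the half-site that REV-ERBs and other nuclear receptors bind).
Elovl5, chr9:77917115-77917364, plus strand: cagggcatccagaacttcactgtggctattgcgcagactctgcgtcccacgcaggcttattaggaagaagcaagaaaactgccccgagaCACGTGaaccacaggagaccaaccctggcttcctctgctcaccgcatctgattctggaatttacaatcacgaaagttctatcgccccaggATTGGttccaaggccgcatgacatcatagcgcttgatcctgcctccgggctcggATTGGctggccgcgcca
Elovl6, chr3:129532136-129532385, plus strand: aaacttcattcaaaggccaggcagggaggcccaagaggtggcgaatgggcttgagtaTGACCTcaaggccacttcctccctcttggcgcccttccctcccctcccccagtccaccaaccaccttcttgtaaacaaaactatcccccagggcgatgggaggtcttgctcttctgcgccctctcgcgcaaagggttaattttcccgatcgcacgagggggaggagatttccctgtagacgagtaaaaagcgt
Fads2, chr19:10101504-10101753, minus strand: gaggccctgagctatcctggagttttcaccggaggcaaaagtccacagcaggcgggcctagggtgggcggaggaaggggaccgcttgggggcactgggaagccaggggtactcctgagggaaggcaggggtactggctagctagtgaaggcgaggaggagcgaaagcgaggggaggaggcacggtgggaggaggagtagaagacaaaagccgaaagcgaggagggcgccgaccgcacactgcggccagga
The Elovl5 promoter held CACGTG 161 bases before the start and CCAAT, read on the opposite strand, at 71 and 17 bases before it. The Elovl6 promoter held AGGTCA on the opposite strand at 193 bases, and the Fads2 promoter held none of the 4. One Elovl1 promoter held CCAAT 35 bases before its start, the other AGGTCA at 95 bases on the opposite strand, and Elovl2 held none. TCACNCCAC was in none of these promoters. Of 32851 mouse promoters of this length, 1.05% held TCACNCCAC, 33.8% CCAAT, 6.02% CACGTG and 14% AGGTCA. A match describes letters in this window only.

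In Control hepatocytes Scd1 was the most abundant of the 9 transcripts and its paralogue Scd2 the least. Scd1 ranged from 1330 to 15272 RPKTM with a median of 8640, and Scd2 from 6.19 to 28.3 with a median of 17.5. Fads2 (mean 2267 ± 681 RPKTM, SD, n = 12) came next and was above Fads1 (1504 ± 275) in 12 of 12 libraries. Elovl3 (1359 ± 1159), Elovl2 (1261 ± 170) and Elovl5 (1082 ± 343) followed with Fads1 above Elovl3 in 7 of 12 libraries, Elovl3 above Elovl2 in 6 and Elovl2 above Elovl5 in 8, so these neighbours did not differ beyond their spread. Elovl6 (520 ± 387) lay below Elovl5 in 11 of 12 libraries, and Elovl1 (78.3 ± 19.2) lay below Elovl6 and above Scd2 in 12 of 12. In the libraries labelled RevDKO the order was Scd1, Fads2, Elovl3, Elovl5, Elovl2, Fads1, Elovl6, Elovl1 and Scd2, with Scd1 above Fads2 in 12 of 12 libraries and the 4 neighbouring pairs from Fads2 down to Fads1 in that order in 7 or 8 of 12. In RevScapTKO the order was Elovl3, Elovl2, Fads2, Elovl5, Elovl1, Elovl6, Fads1, Scd2 and Scd1. Scd1 had become the lowest, below Scd2 in 11 of 12 libraries, and Elovl3 was above Elovl2 in 8 of 12.

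**Figure D1:**
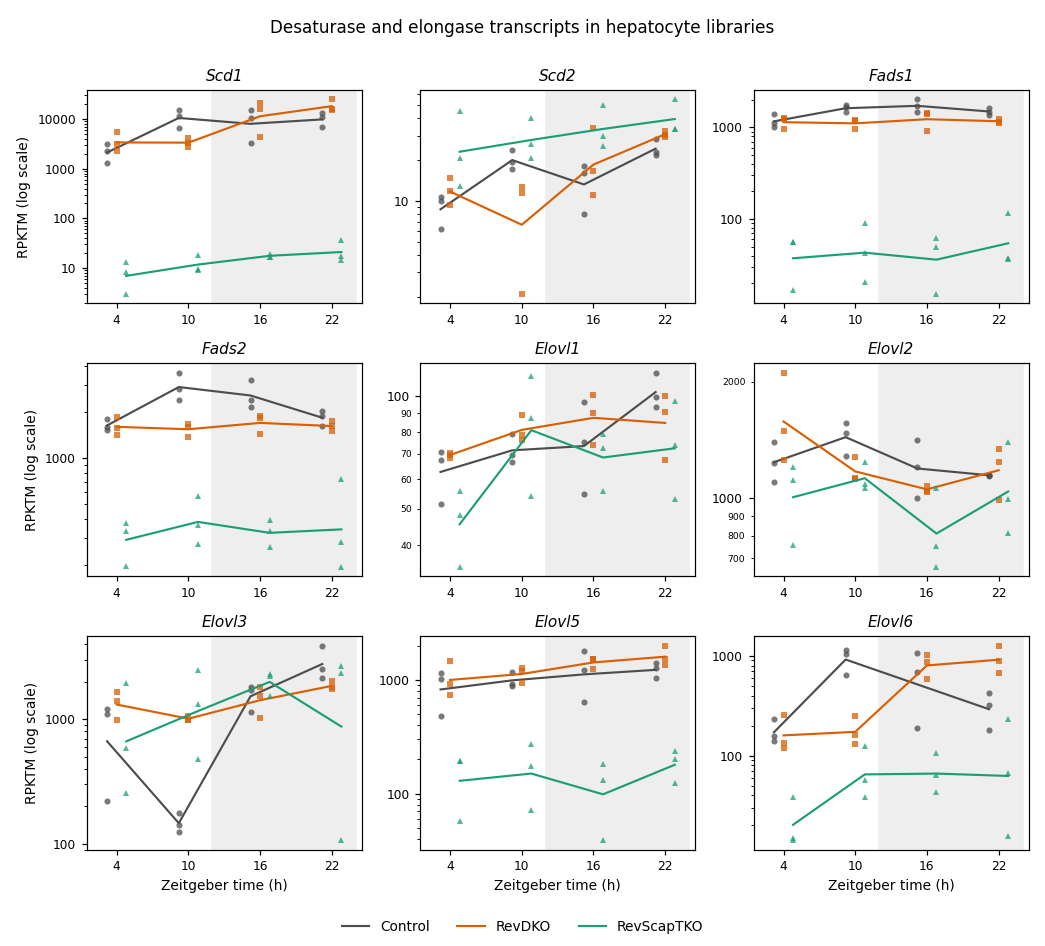
Levels of the 9 transcripts in hepatocyte libraries against zeitgeber time in hours, in RPKTM on log scales that differ between panels. Each point is 1 library, moved sideways by genotype (Control left, RevDKO on the time, RevScapTKO right), lines join geometric means of 3 libraries, and grey marks the dark phase. RevScapTKO points of Scd1 (3.07 to 37.2), Fads1, Fads2 and Elovl5 lie below every point of the other genotypes, those of Scd2 reach 55.1, and those of Elovl3 spread from 108 to 2665.

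The loss of Scap beside both REV-ERBs went with much lower transcripts of Scd1, Fads1, Fads2, Elovl5 and Elovl6 in hepatocytes, which cover oleate synthesis and the desaturation and elongation of polyunsaturated chains. Scd1 ranged from 3.07 to 37.2 RPKTM (median 15.6) in RevScapTKO and from 2226 to 24858 (median 4953) in RevDKO. No library of one overlapped the other, and the mean was 643-fold lower than in RevDKO and 540-fold lower than in Control. On the log2(RPKTM + 1) scale of the test (limma with a mean-variance trend, mean over the 4 times, adjusted over all genes by Benjamini and Hochberg) Scd1 differed from RevDKO by -8.91 (SE 0.26, adjusted p = 1.63e-22). Fads1 ranged from 15.4 to 118 RPKTM (median 46.3) in RevScapTKO against 920 to 1428 (median 1181) in RevDKO. Its log2 difference was -4.74 (SE 0.22, adjusted p = 3.32e-17), a 23.3-fold difference of the means. Fads2 ranged from 194 to 727 RPKTM (median 332) against 1380 to 1880 (median 1609), with a log2 difference of -2.28 (SE 0.15, adjusted p = 3.65e-13). These groups, too, did not overlap.

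Elovl5 ranged from 39.4 to 272 RPKTM (median 179) in RevScapTKO and from 742 to 1999 (median 1310) in RevDKO. There was again no overlap, and its log2 difference was -3.20 (SE 0.24, adjusted p = 5.45e-12). Elovl6 ranged from 14.3 to 233 RPKTM (median 49.9) against 120 to 1267 (median 418). Here 10 of 12 RevScapTKO libraries lay below the lowest RevDKO library and 11 of 12 below the lowest Control library (140), and the log2 difference was -2.93 (SE 0.31, adjusted p = 1.96e-08). Against Control the same 5 genes fell, with log2 differences of -8.81 (Scd1), -5.09 (Fads1), -2.99 (Elovl6), -2.90 (Elovl5) and -2.71 (Fads2) and adjusted p from 2.61e-22 to 8.28e-09. Both contrasts share the RevScapTKO libraries. With Elovl2 and Scd2 below, 6 of 9 members fell and 1 rose in each contrast, where 12.7% of 13326 tested genes were lower and 13.5% higher than in RevDKO (26.2% called in all), and 18.7% lower and 17.3% higher than in Control (35.9% in all). Groups of 12 that did not overlap were 0.758% of genes against RevDKO and 0.991% against Control.

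At single times the Scap-related difference was of like size for most of these genes. Scd1 differed between RevScapTKO and RevDKO by -8.70, -8.03, -9.25 and -9.68 at ZT4, ZT10, ZT16 and ZT22 on the log2 scale. Fads1 lay between -5.04 and -4.39, Fads2 between -2.46 and -2.02, and Elovl5 between -3.83 and -2.90, and these 4 genes passed the test at every time. Elovl6 was the exception, with -2.91 at ZT4 (adjusted p = 0.00363), -1.40 at ZT10 (adjusted p = 0.342), -3.58 at ZT16 (adjusted p = 0.000521) and -3.83 at ZT22 (adjusted p = 0.000224). At ZT10 the RevDKO libraries themselves were low in Elovl6, at 129, 161 and 249 RPKTM, against 38.1, 57.0 and 125 in RevScapTKO. Against Control, with 641, 1050 and 1154 RPKTM at ZT10, Elovl6 was lower at all 4 times, with log2 differences of -3.01, -3.80, -2.95 and -2.19, where 18.9%, 4.35%, 3.24% and 3.62% of genes were called. Its libraries of the 2 genotypes did not overlap at ZT4, ZT10 and ZT16 but did at ZT22. Of all genes 25.5%, 28.0%, 22.5% and 24.4% did not overlap between these genotypes at the 4 times. The share of all genes called in RevScapTKO against RevDKO was 9.28% at ZT4, 0.908% at ZT10, 1.37% at ZT16 and 2.35% at ZT22.

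**Figure D2:**
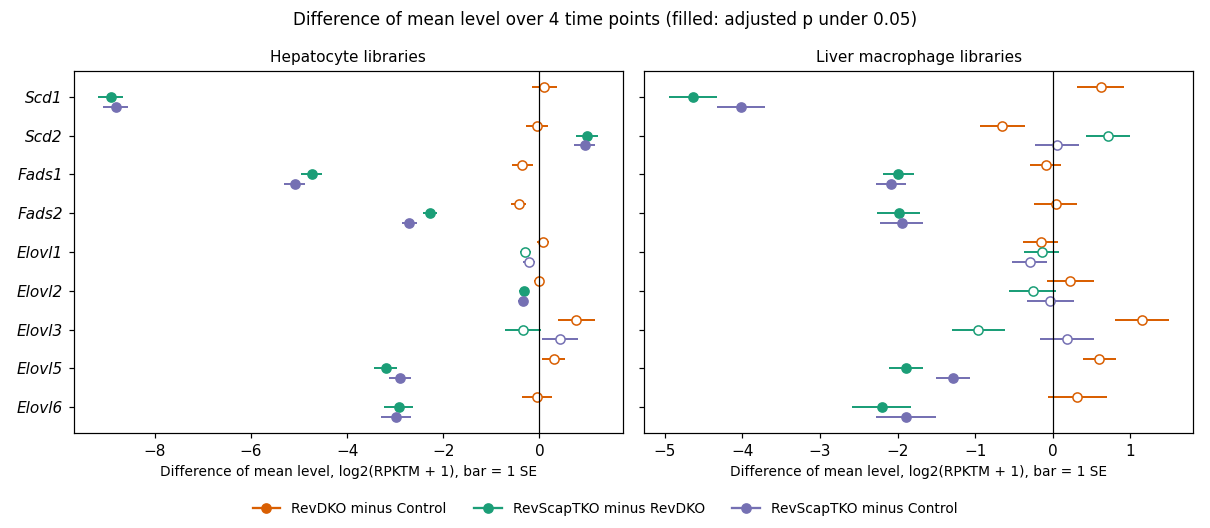
Differences of mean level over the 4 times for each of the 9 genes, in log2(RPKTM + 1), for the 3 contrasts in hepatocyte (left) and liver macrophage (right) libraries. Dots are fitted differences, bars 1 SE, and filled dots have an adjusted p under 0.05. In hepatocytes the RevScapTKO contrasts reach -8.91 for Scd1 while Scd2 lies at 0.99, and none of the RevDKO minus Control dots is filled in either cell type.

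Scd2 was the member that rose. It ranged from 12.8 to 55.1 RPKTM (median 31.5) in RevScapTKO, from 2.10 to 34.0 (median 13.6) in RevDKO and from 6.19 to 28.3 (median 17.5) in Control, so the groups overlapped. Its log2 difference was 0.99 from RevDKO (SE 0.22, adjusted p = 0.00164) and 0.94 from Control (adjusted p = 0.00164). Elovl2 fell a little, from a median of 1183 RPKTM in RevDKO and 1219 in Control to 1065, with log2 differences of -0.32 (SE 0.10, adjusted p = 0.0229) and -0.34 (adjusted p = 0.0117). The first of these calls was lost without RevDKO ZT4 replicate 2 (adjusted p = 0.0536), or without replicate 2 of RevScapTKO at ZT4 (0.051), ZT16 (0.0511) or ZT22 (0.0517). Elovl1 (median 64.2 RPKTM in RevScapTKO, 77.6 in RevDKO) had -0.29 (SE 0.12, adjusted p = 0.073) and passed the test without RevDKO ZT22 replicate 3, RevScapTKO ZT10 replicate 2 or RevScapTKO ZT22 replicate 2 (adjusted p = 0.0471, 0.0337 and 0.0381). Elovl3 had -0.34 from RevDKO (SE 0.38, adjusted p = 0.532) and 0.43 from Control (adjusted p = 0.396). Its RevScapTKO level at ZT22 was 2665, 108 and 2340 RPKTM, and without the middle of these libraries the difference from Control was 0.80 (adjusted p = 0.0265) and that from RevDKO 0.03 (adjusted p = 0.945).

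Transcripts of other liver cells moved with the RevScapTKO label. The summed level of 15 macrophage markers in hepatocyte libraries had a median of 3444 RPKTM in RevScapTKO (1114 to 7297), 1282 in RevDKO (478 to 2785) and 1027 in Control (279 to 3718), and 15 of 15 were higher in RevScapTKO than in either. No macrophage marker was at 0 in any of these groups, and the highest sum was in RevScapTKO ZT22 replicate 2. Of 7 stellate cell markers 6 were higher than in RevDKO (median sums 2530 and 1116), as were 4 of 6 endothelial markers (1921 and 1195). Of 11 hepatocyte markers 4 were lower and 1 higher than in RevDKO, with a median log2 difference of -0.14. Their median sum was 641150 in RevScapTKO, against 611920 in RevDKO. With the mean log2 level of the macrophage markers as a covariate, Scd2 (0.38, adjusted p = 0.713) and Elovl2 (-0.25, adjusted p = 0.561) no longer passed against RevDKO, nor against Control (0.32 with adjusted p = 0.618, and -0.27 with adjusted p = 0.333), and Elovl3 passed against Control (1.57, adjusted p = 0.0423). Scd1 (-8.61), Fads1 (-5.40), Elovl5 (-3.72), Fads2 (-2.69) and Elovl6 (-2.61, adjusted p = 0.000237) still passed against RevDKO. The covariate itself moved with the RevScapTKO label, so a fit with it cannot separate RNA of other cells from the genotype. Why the calls of Scd2, Elovl2 and Elovl3 changed was not tested. In bulk libraries fewer cells of a type and less RNA per cell cannot be told apart.

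The makeup of the pathway differed accordingly. Scd1 was a median of 99.8% of the summed Scd1 and Scd2 level both in Control and in RevDKO hepatocytes, and 30.4% in RevScapTKO (18.6% to 52.5%). Fads1 was 40.8% of Fads1 and Fads2 in Control, 41.8% in RevDKO and 13.02% in RevScapTKO. Among the 5 elongases, Elovl2 (33.5%), Elovl3 (30.7%) and Elovl5 (26.2%) had similar median shares in Control, and Elovl6 had 6.99%. In RevScapTKO Elovl3 had 55.7% and Elovl2 36.1%, while Elovl5 had 5.07% and Elovl6 1.57%. Summed over all 9 members, the median RevScapTKO library held 3414 RPKTM, beside 12723 for RevDKO and 17097 for Control. These sums and shares describe transcript levels per length and follow from the differences above.

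Deletion of the REV-ERBs with Scap intact, as labelled, left the mean level over the day without a call in any of the 9 genes in hepatocytes. Differences of RevDKO from Control ranged from -0.43 for Fads2 (SE 0.15, adjusted p = 0.111) to 0.77 for Elovl3 (SE 0.38, adjusted p = 0.299), and Scd1 had 0.10 (SE 0.26, adjusted p = 0.898). Over all genes 4.43% were called. The 12 libraries of each genotype overlapped in all 9 members, and 0.360% of all genes did not overlap. Fads2, at 1380 to 1880 RPKTM in RevDKO (median 1609) and 1537 to 3640 in Control (median 2108), passed without RevScapTKO ZT22 replicate 2, the library with the highest macrophage marker sum (adjusted p = 0.0252). When only these 2 genotypes were fitted, Fads2 (adjusted p = 0.00217), Fads1 (-0.35, adjusted p = 0.0128) and Elovl3 (adjusted p = 0.0193) passed. Fads1 was 920 to 1428 RPKTM in RevDKO (median 1181) and 1012 to 2017 in Control (median 1473).

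The libraries labelled RevDKO were compared with Control at each time as well. Late in the light phase, at ZT10, Elovl6 was 641, 1050 and 1154 RPKTM in Control and 129, 161 and 249 in RevDKO. It was the only member called at a single time (log2 difference -2.40, SE 0.62, adjusted p = 0.0454), where 0.495% of genes were called lower, and the call was lost in 18 of 36 fits without 1 library (adjusted p from 0.00995 to 0.233) and with the macrophage marker covariate (adjusted p = 0.0526). Scd1 at ZT10 was 6607, 15272 and 11553 RPKTM in Control and 2722, 4140 and 3334 in RevDKO. The groups did not overlap, with a log2 difference of -1.65 (SE 0.52, adjusted p = 0.168). Scd2 was 23.7, 17.1 and 19.2 against 11.4, 2.10 and 12.5 RPKTM, and Fads2 was 3640, 2838 and 2419 against 1671, 1380 and 1602. Both were lower in every RevDKO library, with log2 differences of -1.37 (SE 0.45, adjusted p = 0.192) and -0.92 (SE 0.30, adjusted p = 0.203), and Fads2 passed without RevScapTKO ZT22 replicate 2 (adjusted p = 0.0391) and with only these 2 genotypes fitted (0.00314). Elovl3 went the other way at this time. It was 178, 142 and 124 RPKTM in Control, its lowest point of the day, and 981, 1074 and 988 in RevDKO, with a log2 difference of 2.78 (SE 0.76, adjusted p = 0.0685), which passed in 5 of 36 fits without 1 library (adjusted p from 0.00327 to 0.262), with the marker covariate (3.03, adjusted p = 0.00921) and with only the 2 genotypes fitted (adjusted p = 0.000184). RevScapTKO was also above Control in Elovl3 at ZT10, at 1321, 481 and 2496 RPKTM (log2 difference 2.985, SE 0.76, adjusted p = 0.0172, with 4.35% of genes called).

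Late in the dark phase, at ZT22, 4 of these genes, Elovl6, Scd1, Scd2 and Elovl3, stood in the opposite order. Elovl6 was 181, 321 and 427 RPKTM in Control and 891, 1267 and 680 in RevDKO (log2 difference 1.646, SE 0.62, adjusted p = 0.368). Scd1 was 6781, 12963 and 10848 in Control and 15851, 24858 and 15272 in RevDKO (0.89, adjusted p = 0.713). The RevDKO libraries lay above all Control libraries in both genes and, by a small margin, in Scd2, at 29.1, 32.5 and 30.5 against 22.7, 28.3 and 21.7 RPKTM (0.34, adjusted p = 0.95). Elovl3 lay below, at 2027, 1822 and 1740 against 2547, 2167 and 3915 RPKTM (-0.58, adjusted p = 0.948). Counted over the members, RevDKO and Control libraries did not overlap in 7 of 9 genes at ZT10 (6 lower, 1 higher), in 2 at ZT16 (Fads1 and Fads2, lower), in 5 at ZT22 and in none at ZT4, against 17.1%, 14.6%, 16.3% and 12.2% of all genes. The test called 0.585%, 0.300% and 0.488% of genes at ZT4, ZT16 and ZT22, none of them a member. Scd1, Scd2, Elovl3 and Elovl6 lay without overlap on one side at ZT10 and on the other at ZT22. Of all genes 2.38% lay so on opposite sides at some pair of the 4 times, and the share for ZT10 and ZT22 alone was not counted.

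**Figure D3:**
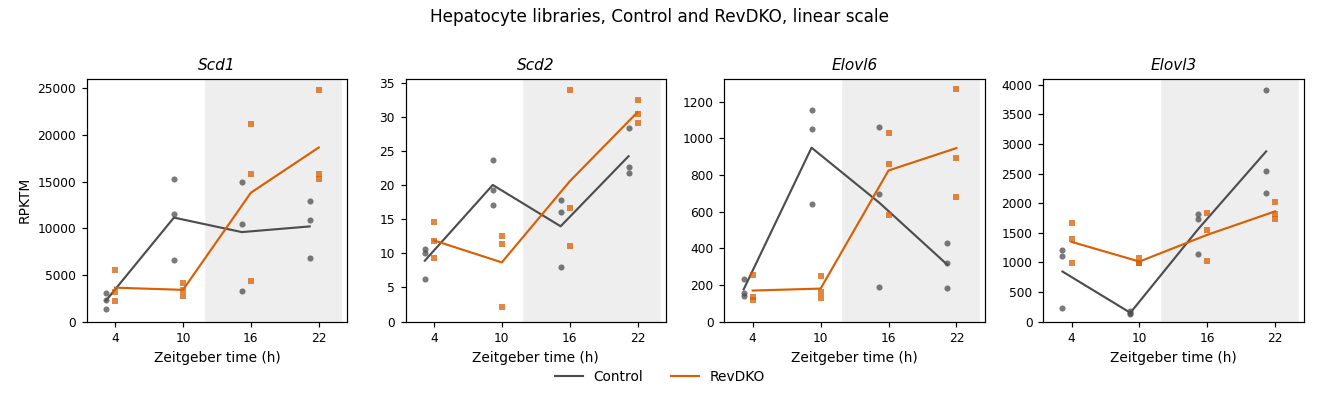
Scd1, Scd2, Elovl6 and Elovl3 in Control and RevDKO hepatocyte libraries against zeitgeber time in hours, in RPKTM on linear axes. Points are single libraries, lines join arithmetic means of 3, and grey marks the dark phase. At ZT10 the Elovl6 points are 641 to 1154 in Control and 129 to 249 in RevDKO, and at ZT22 they are 181 to 427 and 680 to 1267, while Elovl3 at ZT10 is 124 to 178 in Control and 981 to 1074 in RevDKO.

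A 24 h cosine fitted to each genotype placed the peak of Elovl6 at ZT12.9 in Control and ZT19.1 in RevDKO, with peak-to-trough amplitudes of 2.29 and 3.34 on the log2 scale. Scd1 peaked at ZT15.8 with an amplitude of 1.92 in Control and at ZT19.6 with 3.003 in RevDKO, and Scd2 at ZT17.7 with 0.61 and at ZT20.8 with 2.07. Elovl3 peaked at ZT20.9 and ZT21.5, but its amplitude was 4.41 in Control and 0.88 in RevDKO. No member passed the test of a changed daily pattern, which compares both cosine terms between genotypes: the adjusted p was 0.0957 for Elovl6 (unadjusted p = 0.00025), 0.581 for Scd1 (unadjusted 0.00628), 0.669 for Elovl3 (unadjusted 0.00929) and 0.988 for Scd2 (unadjusted 0.0376). Of all genes 0.203% passed. Elovl6 passed without RevScapTKO ZT22 replicate 1 (adjusted p = 0.0222) or replicate 2 (0.0167), and with only the 2 genotypes fitted Elovl6 (0.00716) and Elovl3 (0.0107) passed. In RevScapTKO the amplitudes of Scd1 (1.432) and Elovl6 (1.653) were fitted at levels far below the other genotypes. No member passed for RevScapTKO minus RevDKO (limma, 0 of 13326 genes, 674 at an unadjusted p under 0.05) or RevScapTKO minus Control (0.188% of genes), and Elovl3 passed the latter with the marker covariate (adjusted p = 0.0187).

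Within a genotype, rhythms were called with JTK_CYCLE, the rank test of the study, with the series of each genotype entered 2 times and a peak-to-trough ratio of means over 1.5. Its adjusted p covers the 7 patterns of period and phase tried for a gene and is not adjusted over genes, unlike that of limma. Control hepatocytes had 3 rhythmic members, namely Elovl3 (peak ZT22, ratio 19.4, adjusted p = 7.13e-06), Fads2 (peak ZT13, ratio 1.81, adjusted p = 0.00126) and Elovl6 (peak ZT13, ratio 5.40, adjusted p = 0.0157), where 23.3% of all transcripts were rhythmic. In Control, Fads1 (ratio 1.48, adjusted p = 0.0107) and Elovl2 (ratio 1.26, adjusted p = 0.0226) missed the call by the ratio alone. RevDKO had 6, where 22.8% of transcripts were rhythmic: Elovl6 (peak ZT19, adjusted p = 0.00126), Scd1 (peak ZT19, 0.00313), Elovl3 (peak ZT22, ratio 1.84, 0.00201), Elovl2 (peak ZT4, ratio 1.53, 0.00201), Elovl5 (peak ZT19, ratio 1.56, 0.0157) and Scd2 (peak ZT22, 0.0226). Without 1 library at a time the call was lost in 5 of 12 series for Scd2, in 3 for Elovl5 and in 1 for Elovl2. RevScapTKO had Scd1 alone (peak ZT19, ratio 2.79, adjusted p = 0.0320, 13.7% of transcripts), and this call was lost in 6 of 12 series without 1 library. A gene rhythmic in one genotype and not in another is not thereby shown to differ, and the test of that difference is the pattern test above. Scd1 in Control had a ratio of 4.95 and an adjusted p of 0.150. Without Control ZT16 replicate 1, in which Scd1 was 3271 RPKTM beside 10500 and 15000, Scd1, Fads1 and Elovl5 were called too. Entering the series again adds no data, and entered once only Elovl3 in Control passed (adjusted p = 0.00311). A limma F test of the cosine within a genotype passed Elovl3 (adjusted p = 0.00122), Scd1 (0.0447) and Elovl6 (0.0449) in Control, where 8.29% of genes passed, Scd1 (0.00412), Elovl6 (0.00738) and Scd2 (0.0211) in RevDKO, where 4.08% did, and no member in RevScapTKO, where 0.683% did.

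Other genes of fatty acid synthesis and activation were read from lists, beside the members. Of 9 genes that make acyl-CoA in the cytosol, 9 were lower in RevScapTKO than in RevDKO hepatocytes and none higher, with a median log2 difference of -2.53 beside -2.28 for the 9 members and -0.03 for all genes. Fasn, the fatty acid synthase, had -4.67 (SE 0.25, adjusted p = 1.01e-15), and Acacb, an acetyl-CoA carboxylase, -3.98 (adjusted p = 5.86e-14). Among 9 regulators 3 were lower, of which Srebf1, the gene of SREBP-1, had -4.07 (adjusted p = 2.61e-17) and Insig1, which retains SCAP in the endoplasmic reticulum, -4.18 (adjusted p = 9.17e-19). Of 12 tested genes of fatty acid activation, esterification and peroxisomal shortening 7 were lower, among them Acsl3, an acyl-CoA synthetase, with -3.72 (adjusted p = 2.99e-17) and Lpcat3, which puts polyunsaturated chains into phospholipids, with -1.27 (adjusted p = 1.11e-12). The partners of the members moved less together. Of 17 genes listed for the later steps of the elongation cycle and for the electron supply of desaturases, 12 were found by symbol and all of these were tested. Of them 5 were lower and 1 higher, with a median of -0.11. Tecr, the last enzyme of the cycle, had -1.35 (adjusted p = 1.13e-08) and Cyb5b, a cytochrome b5, -1.02 (adjusted p = 1.53e-06). Of 8 further desaturase and elongase genes 5 were tested, none was lower, and Elovl7 (3.72, SE 0.45, adjusted p = 2.48e-07) and the sphingolipid desaturase Degs2 (1.488, adjusted p = 0.00521) were higher.

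For RevDKO minus Control in hepatocytes none of the 9 acyl-CoA synthesis genes, the 12 elongation cycle genes or the 5 further desaturases and elongases passed. Insig2, the other SCAP-retaining protein, was the only regulator that did, and was higher (0.71, SE 0.13, adjusted p = 0.000521). In the list of activation, esterification and peroxisomal shortening 4 of 12 were lower, including the peroxisomal thiolase gene Acaa1b (-1.81, adjusted p = 9.08e-07).

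Likeness of pattern was measured as Pearson's r of log2 levels over the 12 means of genotype and time, which share a table and the same drop in RevScapTKO and are given as a description. Among the 3 genes most like each member were Srebf1 for Scd1 (0.985), Fdps and H2-Q10 for Fads1 (both 0.994), Slc25a1 for Fads2 (0.987) and Glb1 for Elovl5 (0.981). Elovl6 was most like Rnf103 (0.972), Acaca (0.969) and Aacs (0.965). Elovl3 was most like its overlapping neighbour Pitx3 (0.963) and then Insig2 (0.908), and Scd2 like Tmcc2 (0.948). Within the members, Scd1 had 0.982 with Fads1, 0.984 with Elovl5, 0.912 with Elovl6, 0.0212 with Elovl3 and -0.478 with Scd2.

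In liver macrophage libraries of the same genotypes the same 5 members were lower in RevScapTKO. The deletions were directed to hepatocytes, and Scap in the macrophage libraries had no call (-0.54, adjusted p = 0.127). Scd1 ranged from 17.9 to 166 RPKTM (median 46.3) in RevScapTKO and from 220 to 6041 (median 1313) in RevDKO. There was no overlap, as for 0.151% of all genes, and the log2 difference was -4.63 (SE 0.31, adjusted p = 7.91e-13), a 32.3-fold difference of the means. Fads1 ranged from 23.4 to 87.5 (median 43.3) against 65.9 to 317 (median 216), and Fads2 from 35.7 to 178 (median 75.4) against 163 to 553 (median 314). Their log2 differences were -1.99 (SE 0.20, adjusted p = 2.03e-08) and -1.98 (SE 0.27, adjusted p = 1.14e-05). Elovl5 ranged from 45.03 to 128 (median 68.4) against 75.6 to 748 (median 313), with -1.89 (SE 0.22, adjusted p = 3.32e-07), and Elovl6 from 3.61 to 29.7 (median 10.4) against 6.51 to 342 (median 71.6), with -2.20 (SE 0.38, adjusted p = 0.000374). Against Control the 5 fell as well, with log2 differences of -4.02 (Scd1), -2.08 (Fads1), -1.95 (Fads2), -1.89 (Elovl6) and -1.29 (Elovl5) and adjusted p up to 0.00241. Lower members were 5 of 9 in both contrasts, where 1.78% of 13947 genes were lower than in RevDKO and 1.38% lower than in Control. Elovl1, Elovl2, Elovl3 and Scd2 did not pass, Elovl3 having -0.96 (adjusted p = 0.127) and Scd2 0.71 (adjusted p = 0.157) from RevDKO. Of the other genes, 9 of 9 for cytosolic acyl-CoA synthesis were lower than in RevDKO (median -2.36, beside -1.89 for the members and 0.04 for all genes), Fasn having -4.16 (adjusted p = 2.72e-14), and Elovl7 was higher as in the hepatocyte table (2.598, adjusted p = 5.62e-06).

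Hepatocyte transcripts were present in every macrophage library. The 11 hepatocyte markers summed to a median of 109088 RPKTM in RevScapTKO (40731 to 839115), 97799 in RevDKO (59762 to 141884) and 105431 in Control (68784 to 2414510), none was at 0 in any group, and the macrophage marker sums were 11513, 10856 and 21083. Between RevScapTKO and RevDKO 2 of 11 hepatocyte markers were lower, none higher, and 0 of 15 macrophage markers were called. The 5 differences passed with the hepatocyte markers as a covariate, at -4.83 for Scd1, -1.99 for Fads1, -1.73 for Elovl5, -1.57 for Elovl6 (adjusted p = 0.0153) and -1.48 for Fads2 (adjusted p = 0.0011), and without the 3 libraries in which Alb was among the highest 2 transcripts (Control ZT16 replicate 1, Control ZT22 replicate 1 and RevScapTKO ZT22 replicate 3) they lay between -4.63 and -1.83. The hepatocyte and macrophage values were normalized apart, so median Scd1 of 15.6 RPKTM in hepatocyte and 46.3 in macrophage libraries of RevScapTKO are set side by side only. The covariate follows the hepatocyte markers, not the members, and the same 5 members were lower in RevScapTKO hepatocyte libraries too. A fit with it therefore cannot separate hepatocyte RNA that carries this difference from a difference in macrophages. How much of each macrophage level came from hepatocyte RNA was not tested.

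**Figure D4:**
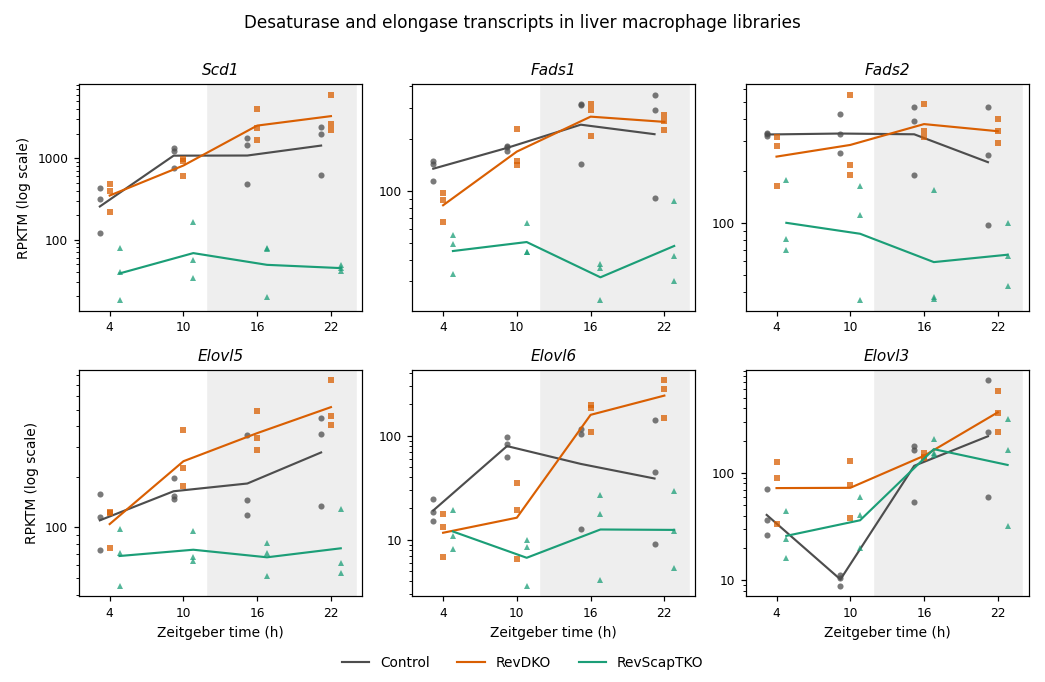
Scd1, Fads1, Fads2, Elovl5, Elovl6 and Elovl3 in liver macrophage libraries against zeitgeber time in hours, in RPKTM on log scales. Points are single libraries, moved sideways by genotype, lines join geometric means of 3, and grey marks the dark phase. Scd1 in RevScapTKO (17.9 to 166) lies below every RevDKO point (220 to 6041), and Elovl6 in RevDKO runs from 6.51 at ZT10 to 342 at ZT22.

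The same contrast was read at single times. Scd1 in RevScapTKO minus RevDKO was -3.14, -3.55, -5.65 and -6.18 at ZT4, ZT10, ZT16 and ZT22 and passed at each. Fads1 (-3.04 and -2.35), Fads2 (-2.63 and -2.35, adjusted p = 0.0215 and 0.0498), Elovl5 (-2.43 and -2.77) and Elovl6 (-3.52 and -4.16, adjusted p = 0.0338 and 0.00479) passed at ZT16 and ZT22 and at neither ZT4 nor ZT10. At ZT10 Fads1 had -1.71 (adjusted p = 0.0695), Elovl5 -1.73 (0.109), Fads2 -1.69 (0.383) and Elovl6 -1.17 (0.825), and at ZT4 Fads2 had -1.26 (0.854), Fads1 -0.86 (0.892), Elovl5 -0.62 (0.999) and Elovl6 0.034 (0.999). All 3 RevScapTKO libraries lay below the 3 of RevDKO in Fads1 at ZT4 and in Fads1, Fads2 and Elovl5 at ZT10, as they did in Scd1 at every time, where 11.7% and 9.91% of all genes did not overlap at ZT4 and ZT10. The share of all genes called was 0.172%, 0.151%, 0.215% and 0.301% at the 4 times. The pattern test of this contrast called no gene (limma, 498 of 13947 at an unadjusted p under 0.05), with an adjusted p of 0.998 for Elovl6 (unadjusted 0.000696), Scd1 (0.000877) and Fads1 (0.00129), so a difference between the times was not established.

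Between RevDKO and Control macrophage libraries no member passed in mean level, with 0.574% of genes called. Values ran from -0.65 for Scd2 (adjusted p = 0.309) to 1.14 for Elovl3 (SE 0.35, adjusted p = 0.135), and Elovl3 passed without Control ZT22 replicate 3, in which it was 730 RPKTM (1.36, adjusted p = 0.0162). Elovl6 was 62.5, 83.7 and 96.5 RPKTM in Control and 34.8, 6.51 and 19.2 in RevDKO at ZT10. At ZT22 it was 9.16, 45.2 and 142 in Control and 283, 342 and 149 in RevDKO. It thus lay below Control at ZT10 and above it at ZT22 without overlap, as in the hepatocyte libraries. The margin at ZT22 was small, with 142 RPKTM in Control beside 149 in RevDKO. Of all genes 1.77% lay so on opposite sides at some pair of times, in one direction or the other. Its fitted peaks were ZT13.7 in Control (amplitude 1.76) and ZT19.1 in RevDKO (amplitude 5.27), with an unadjusted p of 0.000142 and an adjusted p of 0.891 for the changed pattern, in a test that called 0 of 13947 genes (limma, 767 at an unadjusted p under 0.05).

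By JTK_CYCLE Elovl3 was the 1 rhythmic member in Control macrophage libraries (peak ZT22, ratio 33.6, adjusted p = 0.00028, with 12.5% of transcripts rhythmic). The ratio was 14.7 without Control ZT22 replicate 3, at 730 RPKTM beside 60.2 and 241 (adjusted p = 0.00251), and 4 more members were called without Control ZT16 replicate 1, a library rich in Alb. The RevDKO libraries had 6 of 9, against 19.9% of transcripts. Fads1 peaked at ZT16 (adjusted p = 0.000781), and Scd1 (ratio 9.96, 0.00126), Elovl6 (ratio 20.5, 0.00126), Elovl3 (0.00126), Elovl5 (ratio 5.002, 0.00724) and Elovl2 (ratio 7.18, 0.0320) peaked at ZT19, the Elovl2 call being lost in 7 of 12 series without 1 library. Scd1 in these libraries was 398, 478 and 220 RPKTM at ZT4 and 2643, 6041 and 2232 at ZT22, and Elovl5 was 75.6, 124 and 122 at ZT4 and 456, 748 and 408 at ZT22. In RevScapTKO Elovl3 alone was called (peak ZT19, ratio 6.06, adjusted p = 0.0157, with 9.86% of transcripts). Entered once, Elovl3 in Control (adjusted p = 0.0239) and Fads1 in RevDKO (0.0418) passed and no member did in RevScapTKO. The limma cosine passed Elovl3 in Control (adjusted p = 0.0067, with 0.0502% of genes), Elovl6 (0.0011), Scd1 (0.00863), Elovl5 (0.0205) and Fads1 (0.0313) in RevDKO (2.53% of genes), and no member in RevScapTKO (0.0789% of genes).

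Loss of Scap alone was read within its own tables. In ScapKO hepatocyte libraries the members had medians of 4793 RPKTM for Elovl2, 1725 for Fads2, 1577 for Elovl3, 786 for Scd1, 674 for Elovl5, 295 for Elovl6, 184 for Fads1, 101 for Elovl1 and 24.4 for Scd2. The library that stood apart, ZT22 replicate 2, had Scap at 1006 RPKTM beside 205 to 380 in the other 11. It had Scd1 at 75737 (190 to 2932 in the others), Elovl5 at 6041 (427 to 893), Fads1 at 4084 (54.5 to 385), Fads2 at 4094 (921 to 2415) and Scd2 at 133 (11.3 to 48.4). It was also highest in Elovl6, at 634 (97.5 to 563), and had the highest macrophage marker sum of the table, 3898. Without it the means were 4798 ± 803 RPKTM for Elovl2, 1697 ± 1546 for Elovl3, 1577 ± 485 for Fads2, 867 ± 794 for Scd1, 657 ± 151 for Elovl5, 279.6 ± 153 for Elovl6, 184 ± 107 for Fads1, 119 ± 37.9 for Elovl1 and 24.3 ± 10.9 for Scd2 (SD, n = 11). Fads1 was a median of 8.79% of Fads1 and Fads2, Scd1 96.3% of Scd1 and Scd2, and Elovl2 64.1% of the elongases, and without that library 8.77%, 96.1% and 66.0%. Whether these levels differ from Control cannot be tested across tables.

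Elovl3 kept a wide daily range in ScapKO hepatocytes. It was 218, 231 and 224 RPKTM at ZT10 and 4457, 3648 and 4194 at ZT22, and was rhythmic by JTK_CYCLE (peak ZT22, ratio 18.3, adjusted p = 7.13e-06, with 14.2% of transcripts rhythmic) and by the limma cosine within the genotype (adjusted p = 0.00153, with 1.85% of genes). Fads1 was called as well (peak ZT16, ratio 15.7, adjusted p = 0.0226), with a ratio of 3.29 and an adjusted p of 0.00414 without the library apart and a ratio of 24.505 without ZT4 replicate 3, and its call was lost in 4 of 12 series without 1 library. Without the library apart, Fads2 (adjusted p = 0.00251) and Elovl6 (0.00668) were called. Elovl6 was 97.5, 227 and 140 RPKTM at ZT4 and 438, 563 and 371 at ZT10.

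In ScapKO macrophage libraries the medians were 1299 RPKTM for Scd1, 626 for Scd2, 368 for Fads1, 313 for Elovl5, 194 for Elovl1, 167 for Elovl3, 135 for Elovl2, 122 for Fads2 and 24.8 for Elovl6. Scd1 was 66.3% of Scd1 and Scd2, and Fads1 70.7% of Fads1 and Fads2. Without the 2 libraries that stood apart the medians of the other 10 were 1237 for Scd1, 637 for Scd2, 337 for Fads1, 301 for Elovl5, 201 for Elovl1, 122 for Elovl2, 113 for Fads2, 96.3 for Elovl3 and 21.97 for Elovl6, and the shares 64.9% and 73.4%. Both libraries that stood apart were high in genes that are abundant in hepatocytes. ZT4 replicate 2 and ZT22 replicate 2 had Scd1 at 9012 and 6717 (886 to 1923 in the other 10), Fads2 at 1360 and 1243 (47.2 to 263), Elovl5 at 1128 and 1546 (250 to 399) and Elovl2 at 765 and 648 (71.2 to 217). Scd2 was lower in them, at 376 and 243 against 433 to 763. Scap was 665 in ZT4 replicate 2 and 1018 in ZT22 replicate 2, against 523 to 757 in the other 10. Why these libraries stood apart was not tested. The hepatocyte marker sum was highest in ZT22 replicate 2, at 157209 RPKTM, with a median of 56442 and a lowest of 19452. JTK_CYCLE called Elovl3 (peak ZT22, ratio 14.5, adjusted p = 7.13e-06), Elovl1 (peak ZT10, ratio 1.76, adjusted p = 0.00201) and Elovl2 (peak ZT1, ratio 4.33, adjusted p = 0.00724), where 14.4% of transcripts were rhythmic. Without both libraries that stood apart Elovl3 alone was called (ratio 9.80, adjusted p = 8.6e-05), Elovl1 having a ratio of 1.39 and Elovl2 a ratio of 2.21 with an adjusted p of 0.058.

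**Figure D5:**
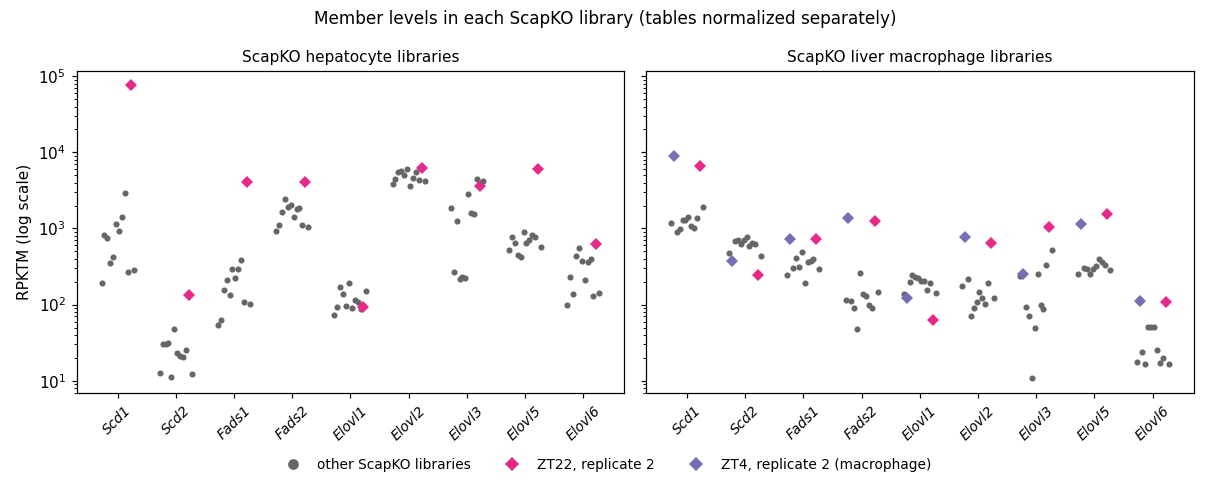
Levels of the 9 members in the 12 ScapKO hepatocyte and the 12 ScapKO macrophage libraries, in RPKTM on a log scale, each point 1 library. Diamonds mark ZT22 replicate 2 of both tables and ZT4 replicate 2 of the macrophage table. The hepatocyte diamond of Scd1 lies at 75737 above the other 11 (190 to 2932), and the macrophage diamonds of Fads2 lie at 1243 and 1360 above 47.2 to 263.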

How the data were processed

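Hepatocytes and liver macrophages were profiled by RNA sequencing. After depletion of ribosomal RNA and stranded library preparation, the authors mapped reads with STAR (mm9) and quantified RefSeq transcripts with Homer, tools named in the submitters' processing notes (versions and strand use are not given in the sources used here). Deposited values are in RPKTM, which is RPKM times 10, quantile normalized within each of 4 tables. They are not counts, and depth is unknown.

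Libraries were grouped by genotype, cell type and ZT from the labels. For ScapKO hepatocyte libraries the title names hepatocytes and the cell type field macrophages, and the title was followed. A gene was read from the transcript of highest mean and kept with over 5 RPKTM in at least 3 libraries. log2(RPKTM + 1), a scale that understates changes of low genes, was fitted with limma 3.58.1 (R 4.3.3, mean-variance trend) with 1 mean per genotype and ZT over the 36 libraries of a cell type, adjusted by Benjamini and Hochberg over all genes, at a threshold of 0.05. A changed pattern is a difference in 24 h cosine and sine terms (F test), and amplitudes are peak to trough. JTK_CYCLE was rewritten in Python (version 3.11.15, with scipy 1.17.1, pandas 2.3.3 and numpy 2.4.6). As in the study, the series was entered 2 times and the ratio of means had to be over 1.5. The periods tried, 18 h and 24 h with 24 h the best, were set here. The filter, over 5 RPKTM in at least 2 libraries, was adapted from that of the study. Peaks fall on 3 h steps, finer than the 6 h sampling. The adjusted p of JTK_CYCLE is the exact p times the 7 patterns of period and phase, with no adjustment over genes. Its shares of rhythmic transcripts count every transcript that passed its filter in the genotype, not 1 per gene. Scripts were tested on simulated data.

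The members and the gene and marker lists were chosen with earlier results of these data known. The members were named throughout, and from each list up to 2 genes with the smallest adjusted p per contrast, with up to 3 genes per member for likeness, and some of the genes so chosen are not reported here. Alternatives were other pseudocounts (0.1 and 10), no filter, all transcripts, only the 2 genotypes compared, a marker covariate (mean log2 level of macrophage markers in hepatocytes, of hepatocyte markers in macrophages), leaving out single or Alb-rich libraries, and a replicate block. Same-numbered libraries of a ZT did not deviate together in every pair, so the numbers were not taken as pairs. Tests were run only within a table.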

Additional observations from a re-analysis of the deposited data

Results flagged for a closer look

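Effects of opposite sign at different times were looked for in the contrasts between genotypes, as differences in which all 3 libraries of one genotype lay above the other at one time and below it at another. These pairs of times were chosen after the values were seen, and the difference between the times of a pair was not tested by itself. The test of a changed daily pattern, which takes in all 4 times, passed no member in these contrasts as reported above. In hepatocyte libraries labelled RevDKO, relative to Control, Elovl6 was lower at ZT10 and higher at ZT22, and the log2 difference changed by 4.05 between them. Scd1 (2.54) and Scd2 (1.71) moved the same way. Elovl3, higher at ZT10 and lower at ZT22, changed by 3.36 the other way. Of all hepatocyte genes 2.38% showed such a reversal between some pair of times. In macrophage libraries, all of which held hepatocyte transcripts, Elovl6 was lower in RevDKO than in Control at ZT10 and higher at ZT22. This was a change of 4.79, where 1.77% of genes reversed. Control ZT22 replicate 1, an Alb-rich library, enters it. Without the Alb-rich libraries the mean difference of Elovl6 over the 4 times was -0.18 (limma, adjusted p = 0.864). Whether hepatocyte RNA contributed was not tested. Elovl2 in macrophage libraries was higher in RevScapTKO than in RevDKO at ZT4 (117, 104 and 151 against 25.6, 46.6 and 67.1 RPKTM) and lower at ZT22 (175, 226 and 91.0 against 278, 488 and 234), a change of 2.52, where 1.53% of genes reversed.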

How the results depend on the processing

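Of the counts of members called, 767 stayed within 1.5 times the reported value over all alternatives and 70 moved. Of the single values 7219 kept direction and call, 58 gained and 75 lost a call, and 55 changed sign. The calls of Scd1, Fads1, Fads2, Elovl5 and Elovl6 for mean level in the RevScapTKO contrasts were kept in every alternative run. For hepatocyte RevDKO minus Control, members called in mean level were 1 with the marker covariate and 3 with only the 2 genotypes (0 reported). At ZT10 they were 0 with a pseudocount of 0.1 or no filter, 2 with the replicate block (Elovl3 in addition, adjusted p = 0.0291) and 3 with only the 2 genotypes (1 reported). For the changed pattern they were 1 with a pseudocount of 10 and 2 with only the 2 genotypes, and 1 for RevScapTKO minus Control with the marker covariate (0 reported). The block changed no other count, and replicate numbers correlated from -0.145 to 0.280 in hepatocytes and from -0.199 to 0.372 in macrophages between same-numbered libraries. The cause of these changes was not tested.

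Rhythmic members with the series entered once, and by the limma cosine, were 1 and 3 in Control hepatocytes (5 with no minimum ratio), 0 and 3 in RevDKO, 0 and 0 in RevScapTKO and 1 and 1 in ScapKO. In macrophages entered once they were 1 in RevDKO, 0 in RevScapTKO and 1 in ScapKO, by limma 0 in RevScapTKO and 0 in ScapKO, and 2 in Control with a null for cosine patterns, an alternative added after the data were seen. Without both ScapKO macrophage libraries that stood apart, also added then, ScapKO macrophages had 1 (3 reported).

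Without 1 library at a time, hepatocyte members called in mean level were 0 to 1 (RevDKO minus Control), 6 to 8 (RevScapTKO minus RevDKO) and 7 to 8 (RevScapTKO minus Control), 0 at ZT4, ZT16 and ZT22 and 0 to 3 at ZT10 for RevDKO minus Control, and 0 to 1, 0 and 0 to 1 for the pattern. In macrophages they were 0 to 1, 5 and 5 for the mean and 0 for the pattern. Rhythmic members were 3 to 6, 4 to 6, 0 to 1 and 1 to 4 in Control, RevDKO, RevScapTKO and ScapKO hepatocytes and 1 to 5, 5 to 7, 1 to 2 and 3 to 4 in macrophages.

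Small log2 differences changed sign. For hepatocyte RevDKO minus Control, Scd2 was 0.0097 with a pseudocount of 10, and with the marker covariate Elovl6 at ZT4 and Fads2 at ZT22 were 0.030 and 0.027. Elovl3 for RevScapTKO minus RevDKO was 0.78 with that covariate. In macrophages RevDKO minus Control was -0.027 (Elovl2) and -0.20 (Fads2) with the covariate, and -0.11 (Elovl2), -0.21 (Fads2) and -0.18 (Elovl6) without the Alb-rich libraries. Elovl2 was 0.28 for RevScapTKO minus RevDKO and 0.26 for RevScapTKO minus Control with the covariate, and for the latter Scd2 was -0.12 with the covariate and Elovl3 -0.24 without the Alb-rich libraries. Without single libraries the ranges that crossed 0 were, for hepatocyte RevDKO minus Control, -0.072 to 0.022 (Elovl2), -0.059 to 0.27 (Scd1), -0.15 to 0.12 (Scd2) and -0.24 to 0.072 (Elovl6) in the mean. At ZT4 they were -0.14 to 0.062 (Fads2), -0.44 to 0.11 (Elovl6), -0.10 to 0.51 (Elovl5) and -0.13 to 0.10 (Fads1). At ZT16 they were -0.31 to 0.13 (Elovl3), -0.14 to 1.193 (Scd1), -0.098 to 1.14 (Elovl6) and -0.052 to 0.69 (Elovl5), and at ZT22 -0.050 to 0.17 (Elovl2). The others were -0.54 to 0.034 for Elovl3 in hepatocyte RevScapTKO minus RevDKO, -0.11 to 0.17 for Fads2 in macrophage RevDKO minus Control, and -0.24 to 0.15 (Elovl2), -0.046 to 0.42 (Elovl3) and -0.057 to 0.15 (Scd2) in macrophage RevScapTKO minus Control.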
